A study of Mus musculus with 11 samples.

Results

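Amino acid transporters were described here through 10 genes, Slc3a2, Slc7a5, Slc7a8, Slc7a1, Slc1a4, Slc1a5, Slc38a1, Slc38a2, Slc38a3 and Slc38a5. Their rows were found by gene name alone. They are 10 of the 54532 genes in the pancreas count table and 10 of the 46078 genes in the adipose table. All 10 passed the filter on low counts in both tissues, so the accounts below hold every member.

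The series measured gene expression by RNA sequencing in a mouse model of obesity-related alcohol-induced acute pancreatitis (OA-AP). All animals were male wild type mice, labelled as C57BL/6 (C57BL/6J in the study's methods) and as 16 weeks old. Control mice ate chow with 10 kcal% fat for 12 weeks and then received 2 intraperitoneal saline injections 1 h apart. OA-AP mice ate a diet with 60 kcal% fat for 12 weeks and then received 2 intraperitoneal ethanol injections, 2 g/kg, at the same interval. Tissue was taken 12 h after the first injection, and the groups were pancreas control (n = 2), pancreas OA-AP (n = 3), epididymal adipose control (n = 3) and epididymal adipose OA-AP (n = 3). Diet, ethanol and pancreatitis differed together between the groups and cannot be told apart, since no group received the fatty diet alone or ethanol alone.

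Amino acids are too polar to cross the plasma membrane by themselves and enter or leave cells through carriers of the solute carrier (SLC) families. Slc3a2 encodes the heavy chain CD98, which carries light chains such as LAT1 (Slc7a5) and LAT2 (Slc7a8) to the cell surface. These pairs exchange large neutral amino acids, including leucine, for others such as glutamine. Slc7a1 encodes the arginine and lysine carrier CAT1, Slc1a4 and Slc1a5 the neutral amino acid exchangers ASCT1 and ASCT2, Slc38a1 and Slc38a2 the sodium-coupled system A carriers SNAT1 and SNAT2, and Slc38a3 and Slc38a5 the system N carriers SNAT3 and SNAT5, which move glutamine, histidine and asparagine. The acinar cell of the exocrine pancreas makes digestive enzymes at a high rate and needs a large supply of amino acids. Intracellular leucine and arginine are sensed by the kinase complex mTORC1, and amino acid shortage is sensed by the kinase GCN2, whose effector ATF4 activates several transporter genes.

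Promoter sequences are shown for 3 genes on which the comparisons turned, Slc38a5 for its large fall in the pancreas, Slc1a4 for its opposite changes in both tissues, and Slc7a8 for its rise in the pancreas. They were taken from RefSeq windows on GRCm38.p6, which run from 250 bases before to 50 bases after a transcription start, and only 30 bases after the start are printed. Of the 10 genes 6 had a window, and Slc7a5, Slc1a5, Slc38a1 and Slc38a3 had none. All 7 windows of these 6 genes were searched on both strands for the amino acid response motif TGATGNAA, to which ATF4 dimers are known to bind, and for the E-box CACGTG. Capitals mark a match. The lines give each strand in the direction of transcription, from chr11:20332684-20332963 (minus strand) for Slc1a4, chrX:8271131-8271410 (plus strand) for Slc38a5 and chr14:54781857-54782136 (minus strand) for Slc7a8.
Slc1a4: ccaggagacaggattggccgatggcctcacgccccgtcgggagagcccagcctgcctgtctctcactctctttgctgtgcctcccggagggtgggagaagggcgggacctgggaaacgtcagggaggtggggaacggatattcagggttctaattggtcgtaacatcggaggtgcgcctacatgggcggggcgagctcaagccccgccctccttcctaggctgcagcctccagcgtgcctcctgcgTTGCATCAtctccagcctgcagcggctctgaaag
Slc38a5: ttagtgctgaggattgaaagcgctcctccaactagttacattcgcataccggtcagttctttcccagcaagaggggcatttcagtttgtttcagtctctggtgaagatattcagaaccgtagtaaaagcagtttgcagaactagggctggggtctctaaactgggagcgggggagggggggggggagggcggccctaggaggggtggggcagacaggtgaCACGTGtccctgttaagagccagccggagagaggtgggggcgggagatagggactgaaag
Slc7a8: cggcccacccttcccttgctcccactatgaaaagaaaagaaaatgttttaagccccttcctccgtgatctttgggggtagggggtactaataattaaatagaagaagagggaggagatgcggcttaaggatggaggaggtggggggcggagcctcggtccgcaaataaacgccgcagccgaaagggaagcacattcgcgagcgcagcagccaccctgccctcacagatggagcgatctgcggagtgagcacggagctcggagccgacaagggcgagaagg

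The amino acid response motif was found in 1 of the 7 windows, that of Slc1a4, read against the direction of transcription (on the plus strand of the genome), from 4 bases before the start to base 4 of the transcript. Among 32851 windows of 300 bases over all genes, 3.97% held this motif. The E-box was found in 1 window, that of Slc38a5, from 30 to 25 bases before the start, and 7.15% of all windows held it. The window of Slc7a8 held neither motif. A match describes letters in a window and was not tested as a binding site.

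The pancreas libraries held between 14188832 and 17238919 counts on genes and the adipose libraries between 20825177 and 27928097. Values are CPM, counts divided by the size of the library, after scaling by TMM factors, which set the bulk of genes level between libraries. A differentially expressed gene (DEG) had an adjusted p under 0.05 in edgeR's quasi-likelihood test and a fold change of at least 1.5. Markers matched the tissue labels, with 16 acinar genes holding 64.1% and 66.0% of counts in control pancreas and 10 adipocyte genes at 68327 to 74272 CPM in control adipose tissue. Acinar genes held 47.5–51.5% of counts in OA-AP pancreas, and 13 of the 16 were downregulated. Scaling matters for every pancreas value below, because TMM factors of controls were 0.79 and 0.70 and those of OA-AP lay between 1.11 and 1.32. The median gene of the pancreas moved from 0.04 to 0.75 on the log2 scale when library totals alone were used, and the upregulated share of DEGs from 54.5% to 92.0%. In adipose tissue the median gene moved from -0.01 to -0.17 and the upregulated share from 48.1% to 32.1%. Results that turn on this choice are given with both values. In such bulk samples, fewer cells of a type and less RNA per cell cannot be told apart.

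Some libraries stood apart. Adipose control replicate 2 held 8381 CPM of acinar transcripts, against 9.45 to 18.0 CPM in the other 5 adipose libraries. Adipose OA-AP replicate 2 had 114 genes at least 2-fold above all other adipose libraries, against 19 to 94 in the rest, and pancreas OA-AP replicate 3 had 251 such genes, against 8 to 73. Neutrophil markers summed to 10.1–16.6 CPM in control and 141–170 CPM in OA-AP adipose tissue, with 5 of the 6 tested genes upregulated and 1 downregulated. In the pancreas they summed to 0.883 and 1.39 CPM in controls and to 17.6, 4.02 and 108 CPM in OA-AP replicates 1, 2 and 3, and 5 of the 10 genes, Camp, Elane, Ly6g, Mpo and Retnlg, had no count in the controls. None of the 6 neutrophil genes tested in the pancreas was a DEG. Islet markers summed to 787 and 848 CPM in control and 1670–2180 CPM in OA-AP pancreas, mesothelial markers to 75.9 and 96.8 CPM against 306–501 CPM, and adipocyte markers to 37.3 and 43.8 CPM against 167–302 CPM. In adipose tissue adipocyte markers summed to 48239–58411 CPM in OA-AP, with 3 of 10 downregulated and 1 upregulated, and fibroblast markers went from 3512–4462 to 1878–2426 CPM, with 5 of 7 downregulated. Lymphocyte markers there went from 14.1–51.8 to 3.07–5.07 CPM, with 7 of 9 downregulated, macrophage markers from 1144–1397 to 1045–1598 CPM, with 3 of 9 upregulated and 1 downregulated, endothelial markers from 1141–1235 to 1060–1684 CPM and ductal markers from 43.0–111 to 52.5–221 CPM, with 1 of 7 upregulated. In the pancreas ductal markers went from 170 and 197 to 206–295 CPM, macrophage markers from 30.7 and 68.1 to 73.3–84.3 CPM, and endothelial markers from 49.1 and 54.9 to 62.4–78.5 CPM. Marker sums are CPM of library totals, while calls rest on TMM scaling, and in the pancreas these can go opposite ways. With TMM scaling 2 of 9 macrophage genes and 2 of 7 endothelial genes were downregulated there, and of 7 ductal genes 1 was upregulated and 2 were downregulated. Of the islet genes 2 of 9 were upregulated and 1 downregulated, and 1 of 6 mesothelial and 2 of 3 tested adipocyte genes were upregulated. The part of these markers in the transporter results was not tested.

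In the pancreas, 4 of the 10 transporter genes were DEGs in OA-AP, against 29.8% of the 12884 genes tested. Slc38a5, Slc1a4 and Slc38a3 were downregulated, where 13.5% of all genes were, and Slc7a8 was upregulated, where 16.2% were. Library totals alone gave 3 upregulated members, Slc7a8, Slc3a2 and Slc1a5, and 1 downregulated, Slc38a5. Of all 12884 genes, 5843 were upregulated and 506 downregulated with that scaling. The median log2 fold change of the 10 was -0.44, beside 0.04 for the whole table. The medians became 0.27 and 0.75 with library totals alone. The plot of CPM by library shows the 5 pancreas and 6 adipose values of each gene.

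**Figure D1:**
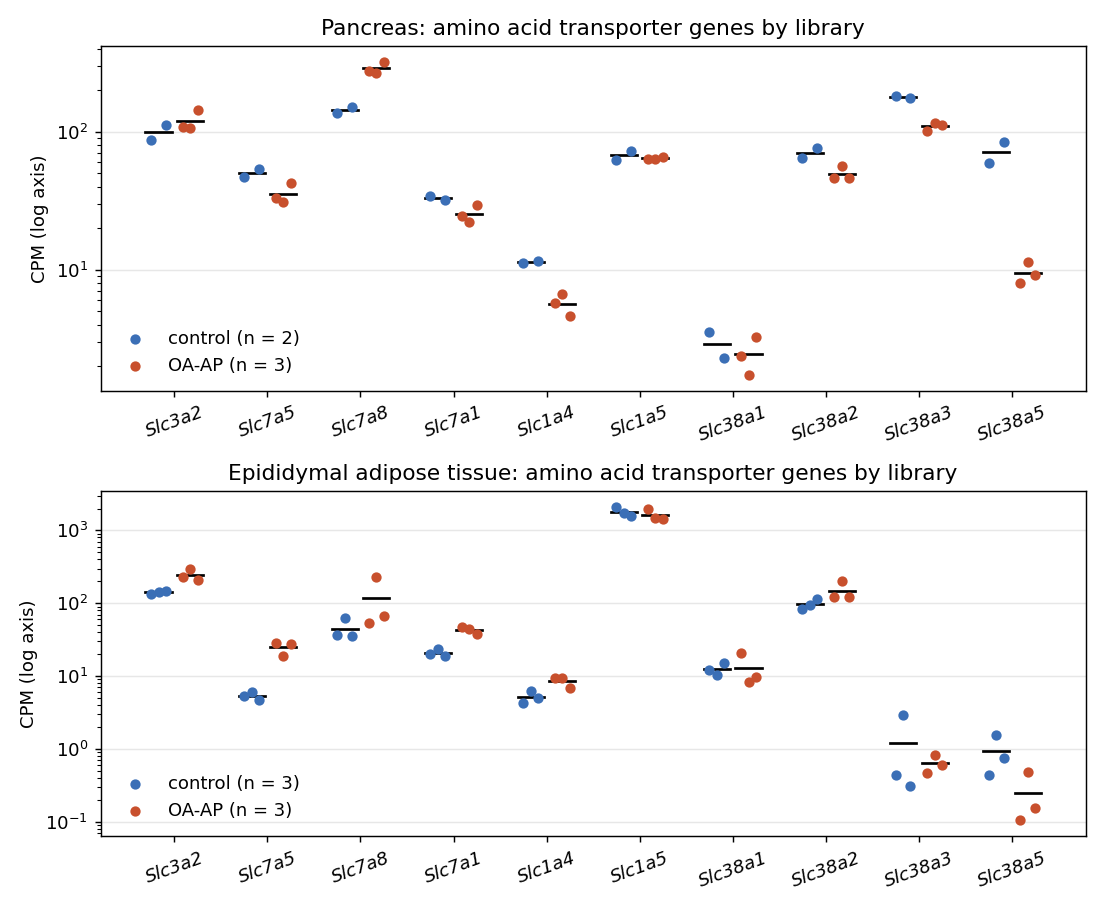
CPM (log axis, TMM scaling) of the 10 transporter genes in each pancreas library (upper panel) and each epididymal adipose library (lower panel), blue for control and orange for OA-AP; points are libraries in replicate order and black lines are group means. Slc38a5 in the pancreas lies at 59.8 and 83.8 CPM in controls and 8.08 to 11.4 CPM in OA-AP, and Slc7a5 in adipose tissue at 4.73 to 6.10 CPM and 18.8 to 28.3 CPM.

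The heavy chain gene Slc3a2 lies on chromosome 19 (8706882–8723369, minus strand, GRCm38, as all gene positions here). In the pancreas it stood at 87.6 and 112 CPM in controls and at 108, 106 and 144 CPM in OA-AP. The groups overlapped, and OA-AP replicate 3 was the highest library. Its log2 fold change was 0.26 ± 0.18 (SE) with an edgeR adjusted p of 0.296, so it was no DEG, but with library totals alone it was upregulated at 0.97 (edgeR adjusted p = 0.000501).

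Slc7a5, the gene of the light chain LAT1, spans 121881150–121907694 on chromosome 8 (minus strand). It overlaps the antisense gene Gm20388, with no shared exon bases. It had 46.9 and 54.1 CPM in control pancreas and 33.1, 31.2 and 42.5 CPM in OA-AP. All OA-AP libraries lay below both controls, with a log2 fold change of -0.50 ± 0.17 (SE). The edgeR adjusted p was 0.0496, and the fold of 1.42 fell short of the threshold. The value turned to 0.20 with library totals alone. It was -0.70 and passed as a DEG when OA-AP replicate 3 was left out.

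Slc7a8, the gene of the light chain LAT2 (chromosome 14, 54722209–54781946, minus strand), was the only upregulated member in the pancreas with TMM scaling, joined by Slc3a2 and Slc1a5 with library totals alone. It stood at 138 and 152 CPM in controls and at 278, 265 and 323 CPM in OA-AP. The groups lay well apart, with 145 ± 10.1 CPM (SD, n = 2) against 289 ± 30.6 CPM (SD, n = 3). The log2 fold change was 1.00 ± 0.14 (SE), with an edgeR adjusted p of 0.00180, and it was 1.71 with library totals alone, again a DEG.

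Slc7a1, encoding the cationic carrier CAT1 (chromosome 5, 148327410–148399904, minus strand), had 34.2 and 32.3 CPM in control pancreas and 24.6, 22.3 and 29.7 CPM in OA-AP. The groups did not overlap, but the log2 fold change of -0.38 ± 0.16 (SE) did not pass the test (edgeR adjusted p = 0.0953). The value turned to 0.32 with library totals alone.

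Of the ASCT pair, Slc1a4 (chromosome 11, 20302180–20332713, minus strand) had 11.2 and 11.5 CPM in control pancreas and 5.77, 6.69 and 4.60 CPM in OA-AP. Both controls lay above all OA-AP libraries, whose counts were 110, 117 and 88. Slc1a4 was downregulated and fell by 1.00 ± 0.21 on the log2 scale (SE, edgeR adjusted p = 0.00868), but at -0.28 it was no DEG with library totals alone. Nor was it a DEG without either control library, at adjusted p = 0.0691 without replicate 1 and 0.0769 without replicate 2.
Slc1a5, the gene of the glutamine carrier ASCT2 (chromosome 7, 16781340–16798274, plus strand), had 62.6 and 72.2 CPM in controls and 63.7, 63.7 and 66.1 CPM in OA-AP. The OA-AP values lay between the control values, and the log2 fold change was -0.06 ± 0.13 (SE, edgeR adjusted p = 0.734). It was a DEG at 0.65 with library totals alone.

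The system A genes were no DEGs in the pancreas. Slc38a1 (chromosome 15, 96571418–96642913, minus strand) was near the lower end of detection, with 3.52 and 2.29 CPM in controls and 2.36, 1.72 and 3.24 CPM in OA-AP, from 23 to 62 counts. Its groups overlapped, and the log2 fold change was -0.25 ± 0.38 (SE, edgeR adjusted p = 0.636). Slc38a2 (chromosome 15, 96687392–96699730, minus strand), the gene of the carrier SNAT2, had 64.4 and 76.9 CPM in controls and 46.4, 56.4 and 46.5 CPM in OA-AP. Its groups did not overlap, and the log2 fold change of -0.51 ± 0.15 (SE) had an edgeR adjusted p of 0.0331, but the fold of 1.42 was below the threshold, which it passed at -0.61 without OA-AP replicate 2. Both signs turned with library totals alone, to 0.43 for Slc38a1 and 0.21 for Slc38a2.

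Both system N genes were downregulated in the pancreas with TMM scaling, and of the pair Slc38a5 alone with library totals. Slc38a5 (chromosome X, 8271133–8280179, plus strand) had 59.8 and 83.8 CPM in controls and 8.08, 11.4 and 9.15 CPM in OA-AP, which are 697 and 840 counts against 154, 200 and 175. No OA-AP library came near a control, and the means were 71.8 ± 16.9 CPM (SD, n = 2) and 9.56 ± 1.71 CPM (SD, n = 3). The log2 fold change was -2.91 ± 0.20 (SE), a 7.51-fold fall with an edgeR adjusted p of 9.97e-05, and -2.19 with library totals alone. Leaving out each library in turn gave values from -3.13 to -2.64.
Slc38a3 (chromosome 9, 107650634–107669530, minus strand) had 183 and 177 CPM in controls and 101, 116 and 113 CPM in OA-AP. The groups were again apart, with 180 ± 4.35 CPM (SD, n = 2) against 110 ± 7.89 CPM (SD, n = 3). It was downregulated with a log2 fold change of -0.71 ± 0.12 (SE, edgeR adjusted p = 0.00411), but with library totals alone the value was -0.00 and no DEG. It also missed the threshold without control replicate 1 (adjusted p = 0.0590) or replicate 2 (adjusted p = 0.0526). The acinar share of counts was 64.1% and 66.0% in controls and 47.5% to 51.5% in OA-AP. It fell as the 3 downregulated genes did with TMM scaling, but it is a share of library totals. With library totals alone Slc38a5 stood at -2.19, Slc1a4 at -0.28 and Slc38a3 at -0.00, and of these only Slc38a5 was a DEG. The part of the acinar share in them was not tested.

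In adipose tissue, 4 of the 10 genes were DEGs, against 25.1% of the 15839 genes tested, and all 4 were upregulated, where 12.1% of all genes were. They were Slc7a5, Slc7a1, Slc3a2 and Slc1a4, of which Slc1a4 was lost with library totals alone. With that scaling 1365 of all genes were upregulated and 2885 downregulated. None of the 10 was downregulated in edgeR's test, where 13.0% of all genes were, and the count was 0 with library totals alone and with DESeq2 as well, while 1 gene, Slc38a5, had a negative change at an unadjusted p under 0.05. The median log2 fold change of the 10 was 0.66, beside -0.01 for the whole table, and 0.51 beside -0.17 with library totals alone.

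Slc7a5 had 5.24, 6.10 and 4.73 CPM in control adipose tissue and 28.3, 18.8 and 27.5 CPM in OA-AP, which are 139 to 144 counts against 545, 391 and 545. Every OA-AP library lay at least 3-fold above every control. The means were 5.36 ± 0.693 CPM and 24.9 ± 5.26 CPM (SD, n = 3 each), which is 2.21 ± 0.19 on the log2 scale (SE, edgeR adjusted p = 0.000562). Values without 1 library lay between 2.12 and 2.39.
Its heavy chain partner Slc3a2 had 134, 143 and 146 CPM in controls and 229, 300 and 211 CPM in OA-AP. The groups were apart, with a log2 fold change of 0.80 ± 0.15 (SE, edgeR adjusted p = 0.00609).
Slc7a8 had 36.9, 62.0 and 35.4 CPM in controls and 53.9, 230 and 66.7 CPM in OA-AP. Its mean rests on 1 library, OA-AP replicate 2 with 4776 counts beside 1040 and 1320, and the other values overlapped between groups. The log2 fold change was 1.38 ± 0.57 (SE) and no DEG (edgeR adjusted p = 0.103). It was 0.44 without that library, and 1.73 and a DEG without OA-AP replicate 1.

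The cationic carrier gene Slc7a1 was upregulated in adipose tissue, from 19.9, 23.6 and 18.7 CPM in controls to 46.8, 44.0 and 38.1 CPM in OA-AP. The groups were far apart beside their spread, with means of 20.7 ± 2.54 and 42.9 ± 4.43 CPM (SD, n = 3 each). The log2 fold change was 1.05 ± 0.12 (SE, edgeR adjusted p = 0.00148).
Slc1a4 had 4.21, 6.27 and 5.07 CPM in controls and 9.54, 9.47 and 6.82 CPM in OA-AP. The highest control lay just below the lowest OA-AP library. It was upregulated with a log2 fold change of 0.73 ± 0.21 (SE, edgeR adjusted p = 0.0318), but at 0.58 it was no DEG with library totals alone (adjusted p = 0.0671), nor without control replicate 1 or 3 or OA-AP replicate 1 or 2 (adjusted p from 0.0620 to 0.0952).
Slc1a5 was by far the most abundant of the 10 in adipose tissue, with 2108, 1713 and 1570 CPM in controls and 1985, 1483 and 1420 CPM in OA-AP. The groups overlapped over most of their range, and the log2 fold change was -0.14 ± 0.19 (SE, edgeR adjusted p = 0.585).

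Slc38a2 had 84.4, 94.1 and 114 CPM in control adipose tissue and 120, 200 and 121 CPM in OA-AP. All OA-AP libraries lay above the controls, with replicate 2 again the highest, and the log2 fold change of 0.59 ± 0.22 (SE) did not pass edgeR's test (adjusted p = 0.0788), while DESeq2 made it a DEG (adjusted p = 0.0362). Slc38a1 had 12.0, 10.4 and 14.9 CPM in controls and 20.5, 8.22 and 9.85 CPM in OA-AP, so its groups overlapped. Its log2 fold change was 0.04 ± 0.35 (SE, edgeR adjusted p = 0.934) and turned to -0.12 with library totals alone. It was -0.46 when OA-AP replicate 1 was left out and -0.07 when control replicate 2 was.
The system N genes were nearly silent in adipose tissue. Slc38a3 had 12, 68 and 9 counts in controls (0.443, 2.88 and 0.306 CPM) and 9, 17 and 12 counts in OA-AP (0.467, 0.817 and 0.606 CPM). The high control is replicate 2, the library with 8381 CPM of acinar transcripts. The log2 fold change was -0.90 ± 0.88 (SE, edgeR adjusted p = 0.455) with that library and 0.76 without it. Slc38a5 had 12, 37 and 22 counts in controls (0.443, 1.57 and 0.749 CPM) and 2, 10 and 3 counts in OA-AP (0.104, 0.481 and 0.152 CPM). Its groups overlapped, and the log2 fold change was -1.84 ± 0.68 (SE, edgeR adjusted p = 0.0702). It was -2.77 and a DEG without OA-AP replicate 2. Without control replicate 2, the library with acinar transcripts, it was -1.24 and no DEG (edgeR adjusted p = 0.193).

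**Figure D2:**
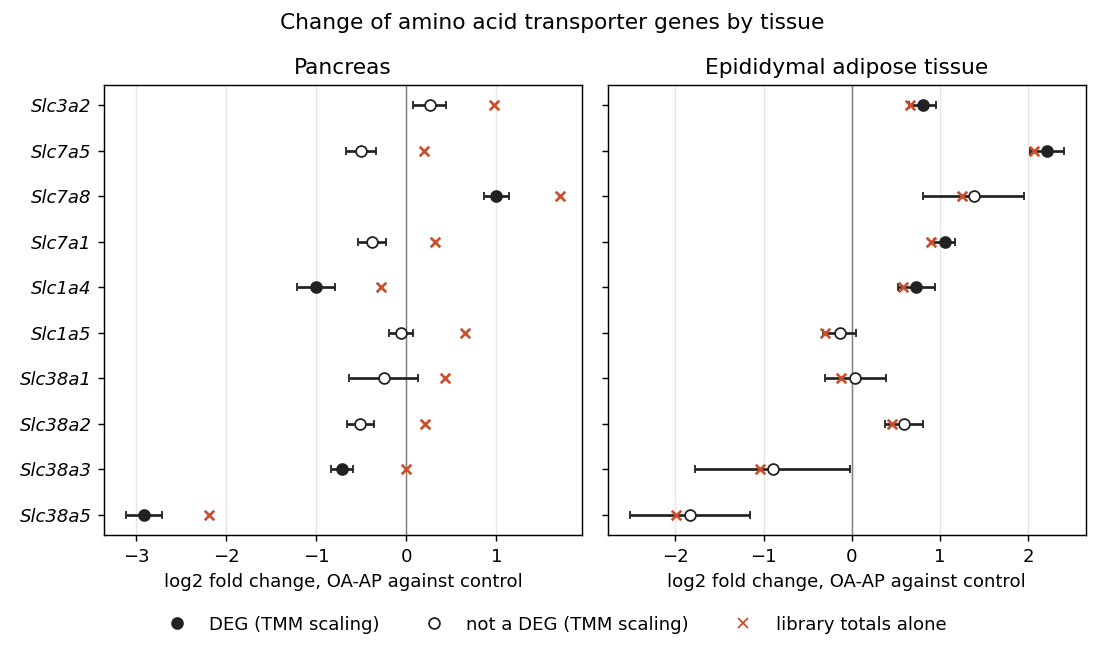
Log2 fold change of OA-AP against control for each gene in the pancreas (left) and epididymal adipose tissue (right); circles are values with TMM scaling, filled for DEGs, bars are ± 1 SE, and crosses are values with library totals alone. In the pancreas the crosses lie to the right of the circles, and only Slc38a5 (-2.91 and -2.19) and Slc7a8 (1.00 and 1.71) are DEGs in the same direction under both scalings; in adipose tissue Slc7a5, Slc7a1 and Slc3a2 are.

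A single fit of 11 libraries and 17046 genes asked, through a tissue by condition term, whether a change differed between the tissues. The term passed for 4 of the 10 members, against 20.6% of all genes, each with a lower change in the pancreas than in adipose tissue, where 10.4% of all genes were. With library totals alone the median difference of all genes moved from 0.06 to 0.88 and the positive share of called genes from 49.4% to 94.3%. Slc7a5 differed most, with a difference of log2 fold changes (pancreas minus adipose tissue) of -2.70 ± 0.26 (SE, edgeR adjusted p = 6.00e-05), and -1.86 with library totals alone. Slc7a1 differed by -1.42 ± 0.21 (SE, edgeR adjusted p = 0.000695), and by -0.59 with library totals alone, still past both thresholds. Slc1a4, downregulated in one tissue and upregulated in the other, differed by -1.72 ± 0.31 (SE, edgeR adjusted p = 0.00231), but at -0.87 the difference no longer passed with library totals alone (adjusted p = 0.0751). Slc38a2 differed by -1.09 ± 0.30 (SE, edgeR adjusted p = 0.0252). That difference was -0.24 with library totals alone and was also lost in 6 of the 11 fits that left out 1 library, pancreas control replicate 1 or 2, pancreas OA-AP replicate 1 or 3, or adipose control replicate 1 or 2 (adjusted p from 0.0506 to 0.111).
The term did not pass for the other 6 genes. For the heavy chain gene Slc3a2 it was -0.53 ± 0.25 (SE, edgeR adjusted p = 0.166), and at -0.69 it passed only without pancreas OA-AP replicate 3 (adjusted p = 0.0485). For Slc38a5 it was -1.09 ± 0.79 (SE, edgeR adjusted p = 0.379). Slc38a3 passed only without adipose control replicate 2, the library with acinar transcripts, at -1.41 (edgeR adjusted p = 0.0150). Slc1a5 passed only with library totals alone, at 0.94 (adjusted p = 0.0172).

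Control pancreas was also compared with control adipose tissue in that fit. Tissue cannot be told apart here from the way each table was sequenced and counted. Of the 10 genes 9 passed, against 55.5% of all genes, 8 of them higher in the pancreas, where 26.0% of all genes were, and Slc1a5 higher in adipose tissue, where 29.4% were. Scaling weighs heavily here. Acinar genes held 64.1% and 66.0% of counts in control pancreas, and their part in this was not tested. With library totals alone the median gene moved from -0.22 to -2.67 and the share of called genes higher in the pancreas from 46.9% to 7.42%.
The system N genes had the highest log2 differences of the 10. Slc38a3 differed by 9.25 ± 0.68 on the log2 scale (SE, edgeR adjusted p = 1.34e-06) and Slc38a5 by 8.28 ± 0.42 (SE, edgeR adjusted p = 3.90e-08), and with library totals alone by 6.78 and 5.80. Without adipose control replicate 2 the values were 10.81 and 8.81. Slc7a5 was higher in the pancreas by 5.21 ± 0.21 (SE, edgeR adjusted p = 2.71e-09), or 2.74 with library totals alone, and Slc1a4 by 3.11 or 0.64.
Slc1a5 was lower in the pancreas by 2.76 on the log2 scale (log2 difference -2.76 ± 0.21, SE, edgeR adjusted p = 3.36e-07), or -5.24 with library totals alone. The other calls depended on scaling. Slc7a8 went from 3.67 to 1.20 and Slc7a1 from 2.66 to 0.19, both no longer called. Slc3a2 turned from 1.47 to -1.01 and Slc38a2 from 1.51 to -0.97, both called each time. Slc38a1 went from -0.11, not called, to -2.57, called.

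Counts divided by gene length let the 10 genes be compared with each other within a library, and their shares of the summed level do not depend on scaling. In control pancreas 4 genes carried most of the sum, Slc38a3 with a mean share of 20.6%, Slc38a5 with 19.0%, Slc7a8 with 17.4% and Slc3a2 with 16.8%. In levels per length, neighbours among these 4 overlapped between libraries, so their order is not settled. Below them came Slc1a5 at 9.67%, Slc7a5 at 8.16% and Slc38a2 at 4.78%, each apart from its neighbours, then Slc1a4 and Slc7a1, both at 1.74% and overlapping, and Slc38a1 at 0.103%.
In OA-AP pancreas Slc7a8 led with 38.1% (36.8–39.1%), followed by Slc3a2 with 22.3% and Slc38a3 with 13.9%, and Slc38a5 held the seventh place with 2.84% (2.44–3.54%). No neighbours overlapped in levels per length. Slc1a5 held 10.3%, Slc7a5 6.32%, Slc38a2 3.75%, Slc7a1 1.46%, Slc1a4 0.973% and Slc38a1 0.0927%.

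**Figure D3:**
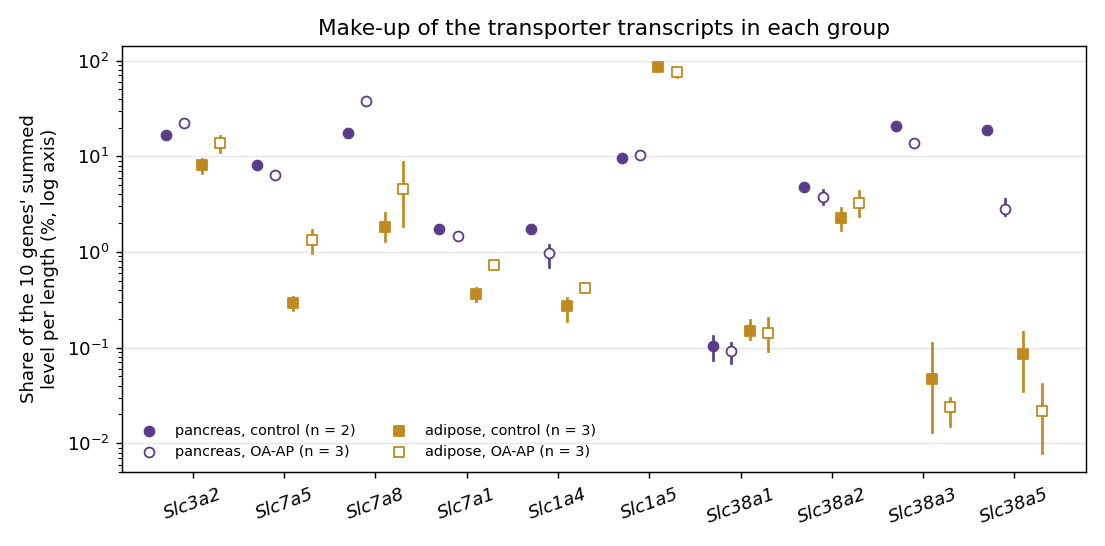
Share of each gene in the summed level per length of the 10 genes (%, log axis) in the 4 groups, purple circles for pancreas and gold squares for adipose tissue, filled for control and open for OA-AP; markers are group means and lines run from the lowest to the highest library. Slc1a5 holds 86.5% and 75.8% of the sum in control and OA-AP adipose tissue but 9.67% and 10.3% in the pancreas, where Slc38a5 goes from 19.0% to 2.84%.

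In adipose tissue Slc1a5 alone held 86.5% of the sum in controls (84.9–89.4%) and 75.8% in OA-AP (68.2–82.0%), with the ranges apart. Slc3a2 came next, with 8.17% in controls (6.74–9.34%) and 13.7% in OA-AP (11.2–16.3%). Slc38a2 followed with 2.27% and 3.26%, and Slc7a8 with 1.82% and 4.56%, these 2 overlapping with each other in both groups. The Slc7a8 share in OA-AP was 1.86%, 8.81% and 3.02%, and its mean was 2.44% without replicate 2. Slc7a5 went from 0.293% (0.250–0.342%) to 1.32% (0.973–1.69%) and Slc7a1 from 0.365% to 0.727%. The system N genes held the smallest mean shares. Slc38a3 held 0.0148%, 0.113% and 0.0131% in controls and 0.0152%, 0.0297% and 0.0261% in OA-AP, so its control mean of 0.0471% rests on replicate 2, the library with acinar transcripts. Without it that mean was 0.0140%, below the OA-AP mean of 0.0237%. Slc38a5 had mean shares of 0.0852% in controls (0.0349–0.145%) and 0.0215% in OA-AP (0.00797–0.0412%), which overlapped. Without replicate 2 of each group they were 0.0552% and 0.0117%.

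Ratios of partner genes inside a library are also free of scaling, and are given as counts per base of one gene over those of the other. The ratio of Slc7a5 to its heavy chain partner Slc3a2 was 0.509 and 0.462 in control pancreas and 0.292, 0.279 and 0.280 in OA-AP, while in adipose tissue it was 0.0371, 0.0406 and 0.0308 in controls and 0.118, 0.0597 and 0.124 in OA-AP. In neither tissue did the groups overlap, and they lay in opposite order. The ratio of Slc7a8 to Slc3a2 was 1.11 and 0.960 in control pancreas and 1.82, 1.76 and 1.58 in OA-AP, again apart. In adipose tissue it was 0.193, 0.306 and 0.171 against 0.166, 0.540 and 0.222, with overlap.
The ratio of Slc38a5 to Slc38a3 was 0.769 and 1.11 in control pancreas and 0.188, 0.231 and 0.191 in OA-AP, lower in each OA-AP library than in either control. In adipose tissue, where both genes had few counts, it was 2.35, 1.28 and 5.76 in controls and 0.523, 1.39 and 0.589 in OA-AP, with overlap. That of Slc1a4 to Slc1a5 was 0.191 and 0.169 in control pancreas and 0.0963, 0.112 and 0.0740 in OA-AP. In adipose tissue it went from 0.00212, 0.00389 and 0.00343 to 0.00511, 0.00679 and 0.00510, the opposite direction. The Slc1a4 to Slc1a5 groups were apart in both tissues. No test was run on the ratios.

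**Figure D4:**
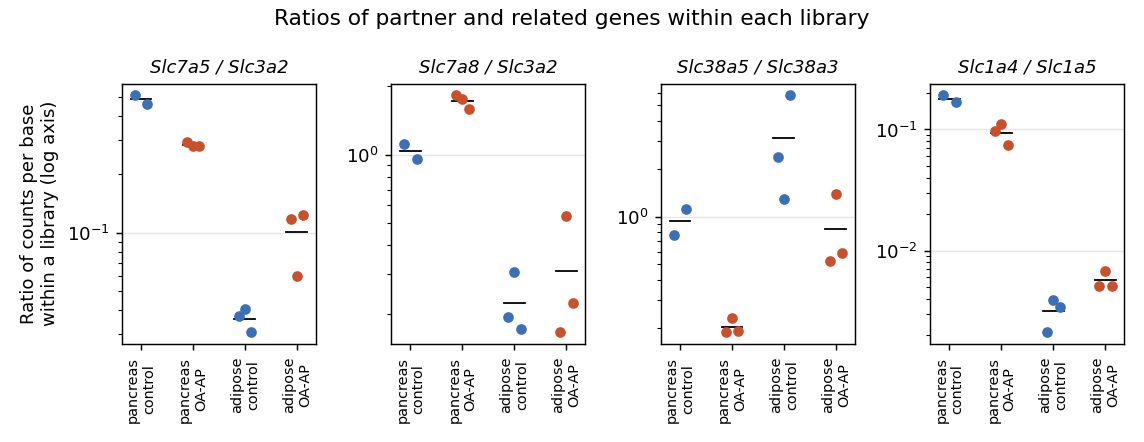
Ratio of counts per base between 2 transporter genes in each library (log axes), for Slc7a5 to Slc3a2, Slc7a8 to Slc3a2, Slc38a5 to Slc38a3 and Slc1a4 to Slc1a5; points are libraries, blue for control and orange for OA-AP, and lines are group means. Slc7a5 to Slc3a2 lies lower in OA-AP than in control pancreas (0.279–0.292 against 0.462 and 0.509) and higher in OA-AP than in control adipose tissue (0.0597–0.124 against 0.0308–0.0406).

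Among 41 other amino acid transporter genes, 22 were tested in the pancreas and 3 rose and 3 fell as DEGs (27.3%, beside 29.8% of all genes), with a median log2 fold change of -0.03. Library totals alone made 9 upregulated and 2 downregulated, beside 5843 and 506 of all 12884 genes. The list median was then 0.67. Slc7a6, encoding y+LAT2, another light chain partner of CD98, rose from 12.2 ± 1.81 to 47.8 ± 4.79 CPM, by 1.97 ± 0.17 on the log2 scale (SE, edgeR adjusted p = 0.000227). The glycine transporter gene Slc6a9 rose from 83.6 ± 5.92 to 159 ± 2.94 CPM, by 0.93 ± 0.12 (edgeR adjusted p = 0.00133). Slc7a2, encoding the cationic carrier CAT2, went from 47.3 ± 6.65 to 7.90 ± 3.65 CPM, a log2 fold change of -2.59 ± 0.34 (edgeR adjusted p = 0.00227). The glutamate transporter gene Slc1a2 had at most 22 counts in controls and at most 3 in OA-AP. Its log2 fold change was -3.71 ± 0.64 (SE, edgeR adjusted p = 0.00375), and -3.04 with library totals alone. With OA-AP set to 3 counts per library the fall was 9.21-fold with TMM scaling. These SDs are over n = 2 control and n = 3 OA-AP libraries, and all 4 genes were DEGs in the same direction with library totals alone.
In adipose tissue 27 of the 41 were tested, with 6 upregulated and 4 downregulated (37.0%, beside 25.1% of all genes) and a median of -0.05. With library totals alone 5 were upregulated and 7 downregulated, beside 1365 and 2885 of all 15839 genes. The list median was then -0.19. Slc7a11, the cystine light chain xCT that also pairs with CD98, rose from 0.501 ± 0.197 to 4.64 ± 1.90 CPM (SD, n = 3 each), by 3.22 ± 0.41 on the log2 scale (SE, edgeR adjusted p = 0.00179). Slc7a6 rose there too, from 28.1 ± 3.21 to 69.1 ± 15.9 CPM, by 1.30 ± 0.17 (edgeR adjusted p = 0.00222). The lysosomal proton-coupled carrier gene Slc36a1 rose by 0.77 ± 0.15 (edgeR adjusted p = 0.00781). Slc38a4, a system A gene, had 0.659 ± 0.0483 CPM in controls and 0.168 ± 0.0345 CPM in OA-AP, a log2 fold change of -1.95 ± 0.33 (edgeR adjusted p = 0.00495) from at most 21 counts. These 4 were DEGs in the same direction with library totals alone.

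A list of 33 genes of mTORC1 and its amino acid sensing also held Mtor, Rptor, Mlst8, Tsc1, Tsc2, Tbc1d7 and Rheb. Of these 33, 32 were tested in the pancreas, and 4 were upregulated and 7 downregulated (34.4%, beside 29.8% of all genes). The median was -0.04. Library totals alone made 15 upregulated and 2 downregulated, beside 5843 and 506 of all 12884 genes. The list median was then 0.68. Flcn, encoding folliculin, went from 43.9 ± 1.74 to 8.21 ± 2.15 CPM, a log2 fold change of -2.42 ± 0.22 (edgeR adjusted p = 0.000264), and its binding partner Fnip2 fell by 1.79 ± 0.18 on the log2 scale (edgeR adjusted p = 0.000428). Both were DEGs under both scalings. Sesn1, one of the sestrins, which hold mTORC1 back, rose from 42.0 ± 8.17 to 141 ± 19.2 CPM, by 1.74 ± 0.19 (edgeR adjusted p = 0.000505), also under both scalings. Lamtor2, a subunit of the lysosomal Ragulator complex, fell by 1.20 (edgeR adjusted p = 0.00221), but at -0.47 it was no DEG with library totals alone. In adipose tissue 31 were tested and 2 were DEGs (6.45%, beside 25.1% of all genes), both downregulated, with a median of 0.01. They were Flcn at -0.80 ± 0.11 (SE, edgeR adjusted p = 0.00237) and Sesn3 at -0.80 ± 0.24 (SE, edgeR adjusted p = 0.0346). Without a fold threshold 7 passed as higher and 4 as lower, beside 3065 and 2770 of all 15839 genes. With library totals alone 4 were DEGs, again downregulated, where 2885 of all genes were. The list median was then -0.14.

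Of 20 genes of the GCN2 and ATF4 response, 19 were tested in each tissue. In the pancreas 6 were upregulated and 5 downregulated (57.9%, beside 29.8% of all genes), with a median of 0.26. With library totals alone these were 9 and 2, beside 5843 and 506 of all 12884 genes. The list median was then 0.94. Ddit4, an inhibitor of mTORC1, rose from 32.6 ± 1.30 to 413 ± 161 CPM, by 3.66 ± 0.36 (SE, edgeR adjusted p = 0.000704). The stress-responsive regulator Nupr1 rose by 1.66 ± 0.23 (edgeR adjusted p = 0.00140), and the transcription factor genes Cebpg and Cebpb by 1.07 ± 0.15 (edgeR adjusted p = 0.00137) and 2.19 ± 0.30 (edgeR adjusted p = 0.00157). All 4 were DEGs in the same direction with library totals alone. They were named for the smallest p, and none of the 5 downregulated genes is among them.
In adipose tissue 4 were upregulated and 1 downregulated (26.3%, beside 25.1% of all genes), with a median of 0.12. With library totals alone these were 3 and 1, beside 1365 and 2885 of all 15839 genes. The list median was then -0.03. Ppp1r15a, whose product reverses the phosphorylation of eIF2α, rose by 0.87 ± 0.09 (SE, edgeR adjusted p = 0.000757), Cebpb by 1.51 ± 0.15 (edgeR adjusted p = 0.000814) and Nupr1 by 2.28 ± 0.41 (edgeR adjusted p = 0.00724). Atf4 itself rose from 105 ± 5.90 to 158 ± 5.93 CPM (SD, n = 3 each), by 0.59 ± 0.09 (edgeR adjusted p = 0.00326), and at 0.44 it was no DEG with library totals alone. The 1 downregulated gene had a larger p than these 4. Of the marker sums given above for adipose tissue, that of neutrophils rose as these 4 upregulated genes did. The sums of adipocyte, fibroblast and lymphocyte markers fell, and those of macrophage, endothelial and ductal markers overlapped between the groups. Their part was not tested.

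**Figure D5:**
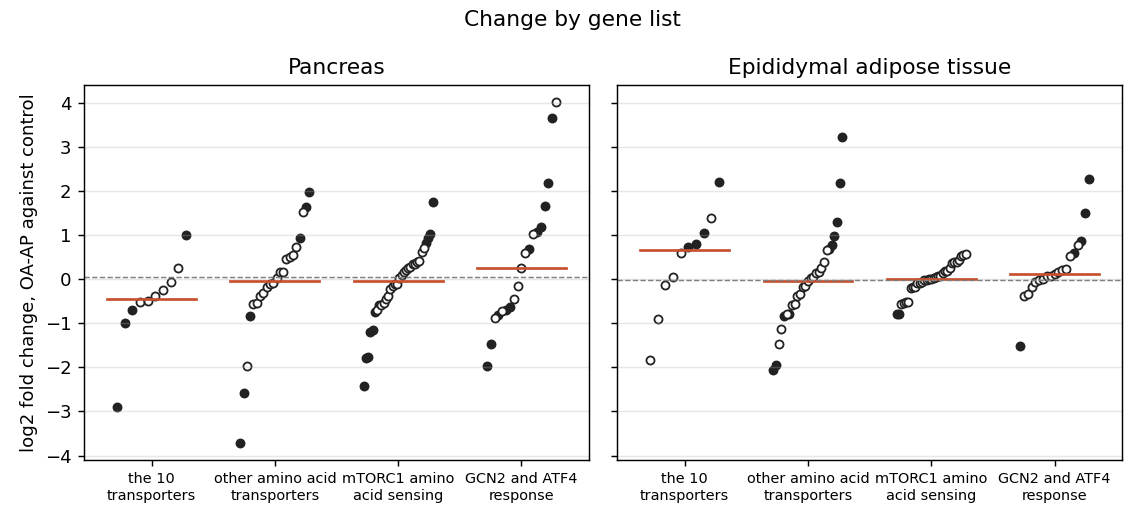
Log2 fold change of OA-AP against control for each tested gene of 4 lists in the pancreas (left) and epididymal adipose tissue (right), with TMM scaling; filled points are DEGs, open points are other tested genes, red lines are list medians and the dashed line is the median of all tested genes. The 10 transporters have a median of -0.44 in the pancreas and 0.66 in adipose tissue, which became 0.27 and 0.51 with library totals alone.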

How the data were processed

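RNA was sequenced in 11 libraries. The authors trimmed the reads with Trim Galore 0.6.6 and fastp 0.20.1, mapped them to GRCm38 with STAR and deposited raw counts per gene from featureCounts 2.0.1, with gene positions and lengths. The annotation release, strand setting and treatment of multi-mapping reads are not given in the sources used here. Gene positions were identical to those of GENCODE M21 for all 10 genes. Groups and replicate numbers came from the labels, which do not say that each library is a separate mouse, so p-values measure the spread between these libraries, which may be technical.

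Per tissue, genes were filtered with filterByExpr, scaled with TMM factors and tested with edgeR 4.0.16 (quasi-likelihood, robust, condition as the term) in R 4.3.3 over all genes, and p-values were adjusted by Benjamini-Hochberg. DEGs passed an adjusted p of 0.05 and a fold of 1.5. Each SE was derived from F as |log2 fold change| / √F. Tissue by condition and the control tissues were tested in 1 fit of all 11 libraries and 4 groups. A group with no library above 3 counts was set to 3 counts per library to give a fold. That fold does not cover the spread between libraries or the choice of scaling. Levels per length used the deposited gene length. The tests were also run on simulated data. These held no shift in acinar transcripts, so they cannot tell how scaling bears on the calls.

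The genes, the lists and the rule for naming genes were chosen with earlier results of these data known. By that rule all 10 transporters are named, with at most the 4 DEGs of smallest p per list and tissue, and marker lists are given as sums. Alternatives were DESeq2 1.42.0 or its size factors, library totals alone, TMM factors without acinar markers, no count filter or at least 10 counts in every library, a fold threshold of 2 or none, a replicate block, and each library left out in turn.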

Additional observations from a re-analysis of the deposited data

Results flagged for a closer look

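For 4 transporter genes the change in OA-AP differed between the tissues by a test of the difference itself, the tissue by condition term of edgeR's quasi-likelihood fit over 11 libraries. Slc7a5 had log2 fold changes of -0.50 in the pancreas and 2.21 in adipose tissue, and the difference was -2.70 (adjusted p = 6.00e-05). Slc1a4 fell by 1.00 on the log2 scale in the pancreas and rose by 0.73 in adipose tissue, with a difference of -1.72 (adjusted p = 0.00231). Slc7a1 had -0.38 and 1.05, with a difference of -1.42 (adjusted p = 0.000695). Slc38a2 had -0.51 and 0.59, with a difference of -1.09 (adjusted p = 0.0252). For Slc7a5, Slc1a4, Slc7a1 and Slc38a2 alike, all OA-AP libraries lay below the controls in the pancreas and above them in adipose tissue, in CPM with TMM scaling. These are the values that the test used, and the share of all genes that lay so was not counted. With library totals alone the pancreas values of Slc7a5, Slc7a1 and Slc38a2 turned to 0.20, 0.32 and 0.21, and the differences of Slc7a5 and Slc7a1 still passed.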

How the results depend on the processing

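Scaling by library totals alone made 6349 DEGs in the pancreas instead of 3834, 6527 genes by tissue and condition instead of 3507, and 15368 between the control tissues instead of 9454. Among the lists it made 11 other transporters and 17 mTORC1 genes DEGs in the pancreas. In adipose tissue 4 mTORC1 genes were then DEGs, beside 4250 of all genes instead of 3981. It turned the log2 fold change in the pancreas of Slc7a1 to 0.32, Slc7a5 to 0.20, Slc1a5 to 0.65, Slc38a1 to 0.43 and Slc38a2 to 0.21, and that of Slc38a1 in adipose tissue to -0.12. The tissue difference turned to 0.45 for Slc7a8, 0.31 for Slc3a2 and 0.54 for Slc38a1, and the difference between control tissues to -1.01 for Slc3a2 and -0.97 for Slc38a2. The median of all genes moved by 0.71 in the pancreas, 0.82 for the tissue difference and -2.45 between the control tissues. The turned values there moved by about as much. Why the 2 scalings differ was not tested.

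A fold threshold of 2 left 2464 pancreas and 2228 adipose DEGs, with 1 and 2 transporters among them. It left 5 other transporters in adipose tissue, 7 and 0 mTORC1 genes, and 7 and 3 GCN2 and ATF4 genes in the pancreas and adipose tissue. No fold threshold gave 11 mTORC1 genes in adipose tissue, beside 5835 of all genes there. At least 10 counts in every library left 5808 genes between the control tissues, with fewer genes tested, and gave no value for Slc38a3 and Slc38a5 in adipose tissue or in the joint fit. Without a count filter Slc1a5 in the pancreas turned to 0.01.

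Leaving out 1 library gave 1495–4265 DEGs and 2–5 transporters in the pancreas, where either control library left 2, and 2332–3654 genes by tissue and condition, lowest without pancreas control replicate 2. Other transporters ranged over 3–8 in the pancreas, lowest without control replicate 1, and 5–9 in adipose tissue, lowest without control replicate 3. mTORC1 genes ranged over 6–14 in the pancreas, lowest without either control, and 1–5 in adipose tissue, lowest without OA-AP replicate 1 or 3 or control replicate 3 and highest without OA-AP replicate 2. GCN2 and ATF4 genes ranged over 6–12 in the pancreas and 3–6 in adipose tissue, lowest without control replicate 1 and control replicate 3. Log2 fold changes that changed sign ranged from -0.16 to 0.05 for Slc1a5 and -0.56 to 0.10 for Slc38a1 in the pancreas, and from -0.46 to 0.29 for Slc38a1 and -1.35 to 0.76 for Slc38a3 in adipose tissue. Tissue differences ranged from -0.69 to 0.63 for Slc7a8, -0.56 to 0.25 for Slc38a1 and -1.41 to 0.71 for Slc38a3, and the control tissue difference of Slc38a1 from -0.50 to 0.14.

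Same-numbered libraries did not deviate together (r from -0.0410 to 0.00147 in the pancreas, -0.163 to 0.0562 in adipose tissue and -0.0115 to 0.0900 between tissues), so the numbers were not taken to pair them. No label tells if a pancreas and an adipose library with the same number come from 1 mouse, and with 2 pancreas controls the correlations of the 2 are mirror images. With the replicate block 5 transporters were DEGs in each tissue, with Slc7a5 (-0.65) added in the pancreas, Slc7a8 (1.12) and Slc38a5 (-1.93) added and Slc1a4 (adjusted p = 0.0552) lost in adipose tissue. Slc38a1 in adipose tissue turned to -0.05 and the tissue difference of Slc7a8 to 0.06, and 2156 genes passed by tissue and condition. No block was fitted for the control tissues. DESeq2 and its size factors turned no sign among the members. In adipose tissue DESeq2 also called Slc38a2. Slc38a5 in OA-AP pancreas (154 to 200 counts) was well sampled, while at 2 to 68 counts the system N genes in adipose tissue were near the limit of this depth.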
